A study of Mus musculus with 20 samples.

Results

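Cells from the kidneys of control mice, sorted for the surface protein Sca-1, were compared after 7 days of culture with fresh cells sorted for the same protein (culture day 0). The comparison uses 6 of the 20 bulk RNA-seq libraries of the series, chosen by their labels: 2 libraries of fresh control cells (day 0) and 4 of control cells at culture day 7. Of the remaining libraries, 4 are control cells at day 21 and 10 carry the roxadustat label. The kidneys were digested and the cells were taken by magnetic sorting. Cultures were kept at 37 °C in 20% O2 and 5% CO2, in MSC medium with FCS (fetal calf serum) and antibiotics. Roxadustat blocks the oxygen-sensing enzymes whose activity leads to the breakdown of HIF, the hypoxia-inducible factor, and the series title concerns its effect on Sca-1+ interstitial cells. The treatment text shared by all samples describes roxadustat at 33 mg/kg, injected into the peritoneum for 7 days. The 6 libraries compared here carry the label control, and what their animals received is not given in the sources used here. Neither are strain, age, the number of animals, or whether the fresh and cultured libraries share animals. The p-values therefore measure the spread between libraries, estimated over all groups of the series. That spread may be technical in part.

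Sca-1, encoded by Ly6a, is a small protein anchored on the outer membrane and is used in mice to enrich stem and progenitor cells, mesenchymal stromal cells and some endothelium. In kidney it also occurs on tubule and vessel cells. Cells with mesenchymal potential that are moved from tissue to plastic typically attach, spread, form actin stress fibres and divide in response to serum, while differentiated tubule cells lose their transport genes. Fibroblasts that gain smooth muscle actin and secrete matrix are called myofibroblasts.

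The libraries held 14632777 to 19562899 counts over the 47729 genes of the annotation, of which 18731 passed the filter on low counts and were tested. Levels are given in CPM, read counts scaled to the same library total after trimmed-mean scaling, which corrects for the share of a library taken by its most abundant genes, and are not divided by gene length. The 10 largest genes took 21.6% and 18.5% of counts in the fresh libraries and 8.93% to 9.2% at day 7. Transcripts of the mitochondrial genome took 15.7% and 11.8% in the fresh libraries and 1.94% to 2.12% at day 7. On log2(CPM + 1), Pearson's r across genes was 0.991 between the fresh libraries, 0.998 within day 7, and 0.746 to 0.749 between the days. The fresh pair differed more from each other than the cultured libraries did, with a biological coefficient of variation of 16.3% against 4.07%. The test used below estimated each gene's spread over all groups, so its standard errors and p-values can understate that of the fresh pair.

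In the whole transcriptome, 6925 genes (37% of those tested) were higher and 7401 (39.5%) were lower at day 7, at an adjusted p of 0.05 in edgeR's quasi-likelihood test. The remaining 4405 were not called. A change of at least 16-fold was found for 957 genes that rose and 1569 that fell. All counts for gene groups below have to be read against this background, in which 76.5% of genes were called and the libraries of the 2 days did not overlap for 81.1%. The median log2 fold change over all tested genes was -0.03. Scaling by library size alone moved that median to 0.40 and the calls to 9073 higher and 5645 lower, so that groups with medians near 0 depend on the scaling.

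**Figure D1:**
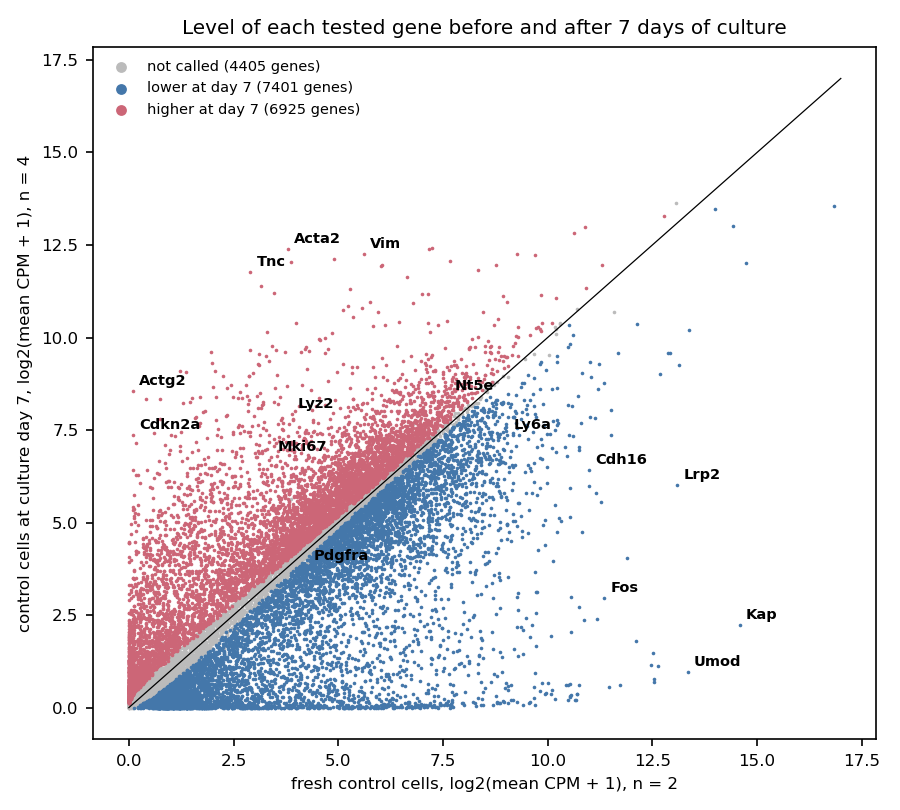
Mean level of each of the 18731 tested genes in fresh cells (horizontal, n = 2) and at culture day 7 (vertical, n = 4), both as log2(CPM + 1), with the line of equal level. The 6925 red genes were called higher and the 7401 blue genes lower, and tubule genes such as Umod and Kap lie along the lower edge while Acta2, Tnc and Vim lie far above the line.

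The sorted protein was the first check. Ly6a (ENSMUSG00000075602, chr15:74994877-74998031 in GRCm38) stood at 549.8 and 496 CPM in the fresh libraries and 172, 166, 158 and 158 CPM at day 7. It fell in every cultured library below both fresh ones, with a log2 fold change of -1.68 ± 0.07 (SE, adjusted p = 7.93e-18), and remained clearly expressed. Of the 15 genes listed for mesenchymal stromal cells, 11 rose, 3 fell and 1 was not called, with a median log2 fold change of 1.24. Thy1, an adhesion protein used as a stromal marker, rose from 3.50 and 1.51 CPM to between 73.0 and 87.3 CPM, with a log2 fold change of 5.00 ± 0.16 (SE, adjusted p = 1.94e-20), or 5.75 without the fresh replicate 1. Nt5e, which encodes the ecto-nucleotidase CD73, was at 184 and 212 CPM in the fresh libraries and 338, 356, 334 and 343 CPM at day 7. This was a small rise without overlap, with a log2 fold change of 0.79 ± 0.08 (SE, adjusted p = 5.61e-10). Vcam1 (log2 fold change 3.18), an adhesion receptor for leukocytes, and the integrin chain Itgb1 (3.47) also rose, whereas Kitl, the ligand of KIT, fell (-0.92). The label names the cells mesenchymal stem cell-like, and the summed level of this list was 1265 and 1251 CPM in the fresh libraries and 5953 to 6137 CPM at day 7. The fresh libraries carried far more tubule transcript than this, with 61500 and 78080 CPM summed over the proximal tubule list, as described below.

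The receptors for platelet-derived growth factor gave different results. Pdgfrb, which marks pericytes and interstitial fibroblasts, stood at 6.30 and 6.05 CPM in the fresh libraries and 257, 242, 261 and 262 CPM at day 7. All cultured libraries were far above both fresh ones, with a log2 fold change of 5.37 ± 0.12 (SE, adjusted p = 5.79e-25). Pdgfra, which marks interstitial fibroblasts, stood at 8.83 and 27.6 CPM in the fresh libraries and 12.6, 11.7, 13.9 and 13.9 CPM at day 7. The cultured values lay between the 2 fresh ones, and the gene was not called (log2 fold change -0.48, adjusted p = 0.112). Without the fresh replicate 1 its log2 fold change was -1.06, and without the fresh replicate 2 it was 0.58. The direction thus depended on which fresh library was kept. Epo, which encodes a hormone, had 0 counts in both fresh libraries and 1 count at day 7, in replicate 2. Its level was not measurable at this depth (3 counts over a group correspond to 0.098 CPM at day 0 and 0.0426 CPM at day 7).

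Kidney tubule transcripts fell. All 22 proximal tubule markers and all 21 tested markers of the loop of Henle, distal tubule and collecting duct were lower at day 7, with medians of -12.05 and -10.43 on the log2 scale (-9.76 for the latter with genes of at most 3 counts in a group set at the limit of 3 counts). The summed level of the proximal list was 61500 and 78080 CPM in the fresh libraries and 157 to 163 CPM at day 7. That of the loop and distal list was 21080 and 16160 CPM in the fresh libraries and 36.5 to 44.0 CPM at day 7. All 4 cultured libraries were far below both fresh ones in both sums. In bulk RNA, fewer cells of a type and less RNA per cell cannot be told apart, here and in all results that follow.

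Umod (ENSMUSG00000030963, chr7:119462711-119479282), which encodes the main protein of normal urine and is made in the thick ascending limb, stood at 11790 and 9045 CPM in the fresh libraries and 0.647, 1.28, 0.866 and 1.02 CPM at day 7. Kap, an androgen-regulated proximal tubule gene, stood at 21220 and 27980 CPM in the fresh libraries and 3.11, 4.01, 3.46 and 4.29 CPM at day 7. Both went from among the highest transcripts of the fresh cells to a level of a few CPM or less. Exons of Umod overlap those of another annotated gene over 19.5% of their length. Slc34a1, the apical sodium-phosphate cotransporter, fell from 6327 and 5606 CPM to between 0.487 and 0.781 CPM. Acsm2 (log2 fold change -12.97), a mitochondrial acyl-CoA synthetase, Slc27a2 (-12.59), a fatty acid transporter, Mep1a (-12.41), a brush border protease, Klk1 (-12.59), tissue kallikrein, and Ugt3a2 (-12.41), a UDP-glycosyltransferase, were also among the 10 largest falls of genes still measurable at day 7, Mep1a at -13.04 without the day 7 replicate 2. Pck1, the rate-limiting enzyme of gluconeogenesis, stood at 2324 and 9039 CPM in the fresh libraries and 1.36, 1.23, 1.35 and 1.02 CPM at day 7. The fresh libraries differed widely for this gene, and both were far above the cultured ones.

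Lrp2, which encodes the endocytic receptor megalin, stood at 8342 and 9141 CPM in the fresh libraries and 62.8, 65.8, 61.5 and 64.6 CPM at day 7. Its log2 fold change was -7.10 ± 0.09 (SE), against -13.24 ± 0.41 for Slc34a1, and it stayed readily measurable in all 4 cultured libraries. Slc4a4, the basolateral bicarbonate cotransporter, fell least of the proximal list (log2 fold change -5.01), and the water channel gene Aqp1 (-7.35) and Ggt1 (-7.76), which cleaves glutathione, were intermediate. In the distal segments the sodium channel subunits Scnn1a (-8.58) and Scnn1b (-10.43) and the tight junction gene Cldn10 (-9.54) fell. Slc22a12, the urate transporter, had 3 counts over the 4 cultured libraries and was higher in the fresh ones by a ratio of 7900-fold (95% counting interval 2700 to 38300), or 17700-fold without the day 7 replicate 2, which held 2 of the 3 counts. Dao, D-amino acid oxidase, also had 3, with a ratio of 7280-fold (95% counting interval 2490 to 35300), or 16100-fold without the day 7 replicate 3, which held 2 of them. Exons of Slc22a12 share 30.1% of their length with Nrxn2.

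General epithelial genes fell with a median closer to 0 than that of the tubule lists. Of 23 listed, 22 fell and 1 rose, with a median of -4.58. When scaled by library size alone, 19 fell and 1 rose. Cdh16, the kidney-specific cadherin, stood at 2078 and 1986 CPM in the fresh libraries and 89.5, 85.5, 80.8 and 83.1 CPM at day 7. It was lower in every cultured library but still at a substantial level, with a log2 fold change of -4.58 ± 0.06 (SE, adjusted p = 8.63e-29). Cdh1, which encodes E-cadherin, fell more steeply (-7.58), as did Grhl2 (-5.93), a transcription factor of epithelial identity. The keratin Krt7 fell from 202 and 188 CPM to between 6.41 and 6.98 CPM and the claudin Cldn4 by a log2 fold change of -4.78. The exception was the keratin Krt19, which rose from 2.34 and 1.71 CPM to between 6.33 and 8.17 CPM (log2 fold change 1.82, adjusted p = 9.08e-09). The renal lineage factors Pax8 (-0.44), Pax2 (-0.94) and Emx2 (-0.51), chosen after their values were seen, fell by less than 1 on the log2 scale. Scaling by library size alone moved the median over all tested genes from -0.03 to 0.40. The size of these falls therefore depends on the scaling, and the smallest may not be falls at all.

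**Figure D2:**
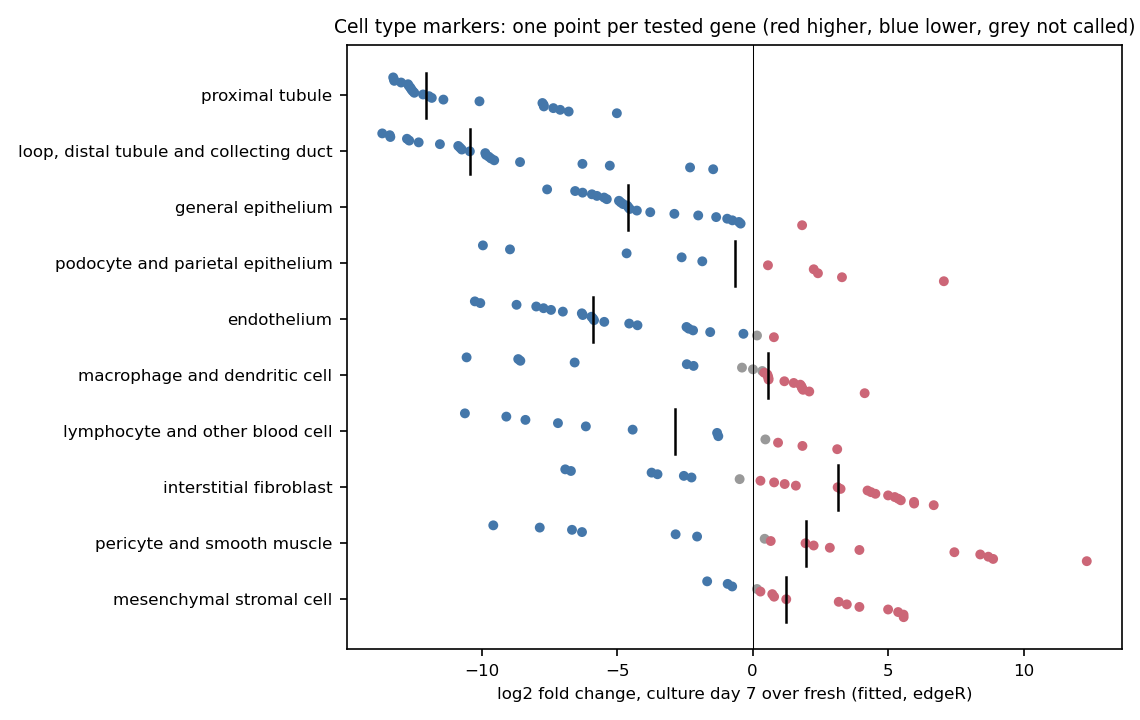
Fitted log2 fold change (day 7 over fresh) of every tested member of the 10 cell type marker lists, with the median of each list as a vertical line. All tubule points lie left of 0, the endothelial list is left of 0 but for Flt1 and 1 gene that was not called, and the fibroblast, pericyte and mesenchymal lists spread on both sides.

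Endothelial genes also fell, 20 of 22, with a median of -5.87, or -5.75 with low-count genes set at the limit of 3 counts. Pecam1, the adhesion molecule CD31, fell from 44.7 and 35.9 CPM to between 0.112 and 0.324 CPM. Plvap (-8.71), a protein of capillary fenestrae, Tek (-5.85), the angiopoietin receptor, and Kdr (-4.55), the main receptor of vascular endothelial growth factor, fell as well, Plvap by a log2 fold change of -9.48 without the day 7 replicate 3. Flt1, the decoy receptor of the same ligand, was the only endothelial gene called higher, from 38.9 ± 2.90 to 67.0 ± 2.67 CPM. Podocyte and parietal epithelial genes were divided, 5 higher and 5 lower. Podxl (-2.62) and the phosphatase Ptpro (-4.65), both of the podocyte surface, fell, while Cldn1 (3.30), a claudin of parietal cells, and the adhesion molecule Ncam1 (7.05) rose.

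Leukocyte genes did not move together. Of 22 tested markers of macrophages and dendritic cells, 13 rose, 6 fell and 3 were not called, and the summed level changed little (419 and 346 CPM in the fresh libraries and 420.0 to 435 CPM at day 7). Lyz2, the lysozyme of macrophages and granulocytes, stood at 12.2 and 15.3 CPM in the fresh libraries and 242, 244, 242 and 238 CPM at day 7. All cultured libraries were above both fresh ones, with a log2 fold change of 4.13 ± 0.11 (SE, adjusted p = 2.47e-23). By contrast, the antigen-presentation gene H2-Aa stood at 59.4 and 48.3 CPM in the fresh libraries and 0, 0.0558, 0.0541 and 0 CPM at day 7, and Cd74, its chaperone, fell by a log2 fold change of -8.65. Ptprc, the pan-leukocyte antigen CD45, fell from 26.4 and 20.9 CPM to between 3.69 and 4.78 CPM. Of the complement genes, C1qa (1.80), C1qb (1.17) and C1qc (1.86), chosen after their values were seen, rose. Among 12 tested lymphocyte, red cell and platelet genes 8 fell and 3 rose, and 8 more of that list were too low to test. One that fell was S100a9, a neutrophil calcium-binding protein with 0 counts at day 7. It was at least 58.4-fold lower by the limit of 3 counts, or at least 38.1-fold without the fresh replicate 2. With a filter of a mean of at least 1 CPM, 2 members of this list were called lower. The list median was then -0.245, against -2.87 in the main fit.

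Fibroblast, pericyte and smooth muscle markers rose in most cases but not as a block. Of the interstitial fibroblast list 16 of 23 rose and 6 fell (median 3.14). Vim (ENSMUSG00000026728, chr2:13573927-13582826), the intermediate filament of mesenchymal cells, stood at 44.3 and 51.0 CPM in the fresh libraries and 4876, 4917, 4979 and 4786 CPM at day 7. The days were separated by a wide gap, with a log2 fold change of 6.68 ± 0.14 (SE, adjusted p = 4.97e-25). Tbx18 (5.96), a factor of ureteric and perivascular mesenchyme, rose too, whereas Pi16 (-6.91), which marks adventitial fibroblasts, and Dpep1 (-6.71), a dipeptidase that is also abundant in proximal tubule, fell. The matrix proteoglycan genes Dcn (-2.26) and Lum (-2.54) and the stromal factor Tcf21 (-3.51), chosen after their values were seen, fell in the same libraries.

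In the pericyte and smooth muscle list, 10 of 17 rose and 6 fell. Acta2 (ENSMUSG00000035783, chr19:34241090-34255590), smooth muscle actin, stood at 13.7 and 12.2 CPM in the fresh libraries and 5643, 5338, 5428 and 5122 CPM at day 7. It was low in both fresh libraries and among the most abundant transcripts at day 7, with a log2 fold change of 8.70 ± 0.27 (SE, adjusted p = 1.27e-15). Actg2, the enteric smooth muscle actin, had 2 counts over both fresh libraries and lay between 363 and 382 CPM at day 7, a ratio of 5730-fold (95% counting interval 1590 to 47300). Both fresh counts came from replicate 1: without it Actg2 was at least 1900-fold higher by the limit of 3 counts, and without the fresh replicate 2 the ratio was 2880. The contractile genes Tagln (8.40), Cnn1 (8.87) and the intermediate filament gene Des (7.44) rose with it. The pericyte genes Rgs5 (-6.30), a regulator of G protein signalling, and Abcc9 (-6.67), a potassium channel subunit, fell, as did the renin gene Ren1, named after its value was seen. Ren1 had 1 count at day 7 and was higher in the fresh libraries by a ratio of 1160-fold (95% counting interval 207 to 45800), or 723-fold without the fresh replicate 2, and at least 284-fold without the day 7 replicate 3, which held that count.

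Cytoskeletal genes rose to high levels. Of 24 genes of the actin cytoskeleton and of serum response factor (SRF), 22 rose and 2 fell, and the summed level was 4253 and 4152 CPM in the fresh libraries and 38630 to 39360 CPM at day 7. Tpm2 (8.07) and Tpm1 (5.00), tropomyosins that stabilise actin filaments, Myl9 (6.61), a myosin light chain, Cald1 (6.47), caldesmon, Cnn2 (6.47), calponin, and the actin crosslinker Flna (5.20) rose. The exceptions were the cytoplasmic actin gene Actg1 (-1.46), which has close copies in the genome that counting may confuse, and Srf itself (-0.32), whose log2 fold change was 0.11 when libraries were scaled by size alone. SRF binds the CArG box, and a match to it was present in the RefSeq promoter window of 5 of the 22 listed genes with a window (22.7%), against 1.56% of 12402 tested genes with one. The same search found it in 0 of 13 windows of the pericyte and smooth muscle list and in 2 of 22 (9.09%) of the immediate early and heat shock list. The cytoskeletal list holds SRF targets by its choice, so its share of matches is no test of SRF action. The windows run from 250 bases before to 50 bases after the gene start. Those of Myl9, Cnn2 and Srf are shown as examples of members named here that hold a CArG match. Capitals mark the match in the RefSeq GRCm38.p6 sequence, 5′ to 3′.
Myl9 promoter, chr2:156775214-156775513, plus strand: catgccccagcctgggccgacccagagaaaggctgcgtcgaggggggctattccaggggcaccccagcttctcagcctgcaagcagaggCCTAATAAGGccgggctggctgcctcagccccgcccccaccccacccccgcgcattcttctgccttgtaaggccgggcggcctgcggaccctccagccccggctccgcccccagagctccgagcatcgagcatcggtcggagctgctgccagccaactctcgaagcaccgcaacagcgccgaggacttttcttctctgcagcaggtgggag
Cnn2 promoter, chr10:79988350-79988649, plus strand: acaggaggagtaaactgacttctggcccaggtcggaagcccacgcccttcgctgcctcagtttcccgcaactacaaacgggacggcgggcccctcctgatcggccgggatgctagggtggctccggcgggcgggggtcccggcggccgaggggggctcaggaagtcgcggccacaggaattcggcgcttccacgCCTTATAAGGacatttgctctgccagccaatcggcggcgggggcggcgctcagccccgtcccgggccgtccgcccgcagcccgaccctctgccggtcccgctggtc
Srf promoter, chr17:46556113-46556412, minus strand: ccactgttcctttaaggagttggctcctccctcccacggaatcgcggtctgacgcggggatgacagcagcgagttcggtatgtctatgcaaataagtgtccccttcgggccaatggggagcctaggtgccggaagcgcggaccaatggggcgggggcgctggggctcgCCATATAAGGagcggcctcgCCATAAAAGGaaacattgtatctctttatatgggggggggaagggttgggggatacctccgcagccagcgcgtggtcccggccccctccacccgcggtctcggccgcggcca
Actg1, which fell, holds a match too and is not shown. A match is a description of letters, not a site.

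Extracellular matrix genes rose. Of 32 matrix and myofibroblast genes, 29 rose, with a median of 5.03, and their summed level was 3620 and 3372 CPM in the fresh libraries and 44920 to 46510 CPM at day 7. Tnc (ENSMUSG00000028364, chr4:63959785-64047015), tenascin-C of wound matrix, stood at 7.46 and 5.46 CPM in the fresh libraries and 3612, 3413, 3401 and 3563 CPM at day 7. Every cultured library was far above both fresh ones, with a log2 fold change of 9.08 ± 0.40 (SE, adjusted p = 2.72e-12). Fbln2, fibulin-2 of elastic and basement membranes, rose from 9.61 and 17.6 CPM to between 4046 and 4411 CPM. Col8a1 (5.97), Col12a1 (5.39) and Thbs1 (4.41), thrombospondin-1, rose as well. Against the majority, Eln (-3.17), elastin, and Tgfbi (-2.61), a matrix adaptor protein, fell. The main fibrillar collagen genes Col1a1 (5.47), Col1a2 (5.95) and Col3a1 (5.24), chosen after their values were seen, rose together.

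Genes that remodel and anchor the matrix also rose in most cases. Among proteases and their inhibitors 17 of 21 rose. Timp1, an inhibitor of metalloproteinases, rose from 0.39 and 2.30 CPM to between 528 and 562 CPM, with a log2 fold change of 8.66 ± 0.29 (SE, adjusted p = 1.59e-14), or 7.90 without the fresh replicate 1 and 10.44 without the fresh replicate 2. Mmp14 (6.28), a membrane-bound collagenase, Adam12 (6.90), a disintegrin protease, and Mmp11 (4.89) rose, while Timp3 (-1.95) and Plau (-3.16), urokinase, fell. Of 23 integrin and focal adhesion genes, 16 rose, such as Itgb3 (5.32), and 6 fell, such as the epithelial chains Itga6 (-2.18) and Itgb8 (-4.05). Of 18 targets of the mechanosensitive factors YAP and TEAD, 14 rose, Ccn2 (5.64), a matricellular growth factor, and Tgfb2 (5.53), a fibrogenic cytokine, among them, and F3 (-2.40), tissue factor, and Gadd45b (-4.12), a stress gene, fell. The collagen-processing part of the secretory pathway moved with them: Serpinh1 (4.05), the collagen chaperone, Fkbp10 (7.70), a prolyl isomerase of procollagen, and P3h1 (3.21), a prolyl hydroxylase, were among 23 of 30 endoplasmic reticulum genes that rose. The stress-response genes Dnajb9 (-1.94) and Xbp1 (-0.38) of that list fell, but for Xbp1 scaling by library size alone gave 0.04.

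Genes listed for epithelial-mesenchymal transition were then examined. Of these 19 genes, 15 rose, and the 4 that fell were the epithelial members Cdh1, Grhl2, Esrp1 and Ovol1. Prrx1 (5.41), a mesenchymal homeobox factor, and Cdh11 (8.41), the mesenchymal cadherin, rose, and the latter went from 1.30 and 1.84 CPM to between 525 and 546 CPM. Esrp1 (-4.53), a splicing factor of epithelia, and Ovol1 (-5.38) are named to complete the count. Whether cells changed identity or cell types changed in number cannot be told apart from these sums.

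**Figure D3:**
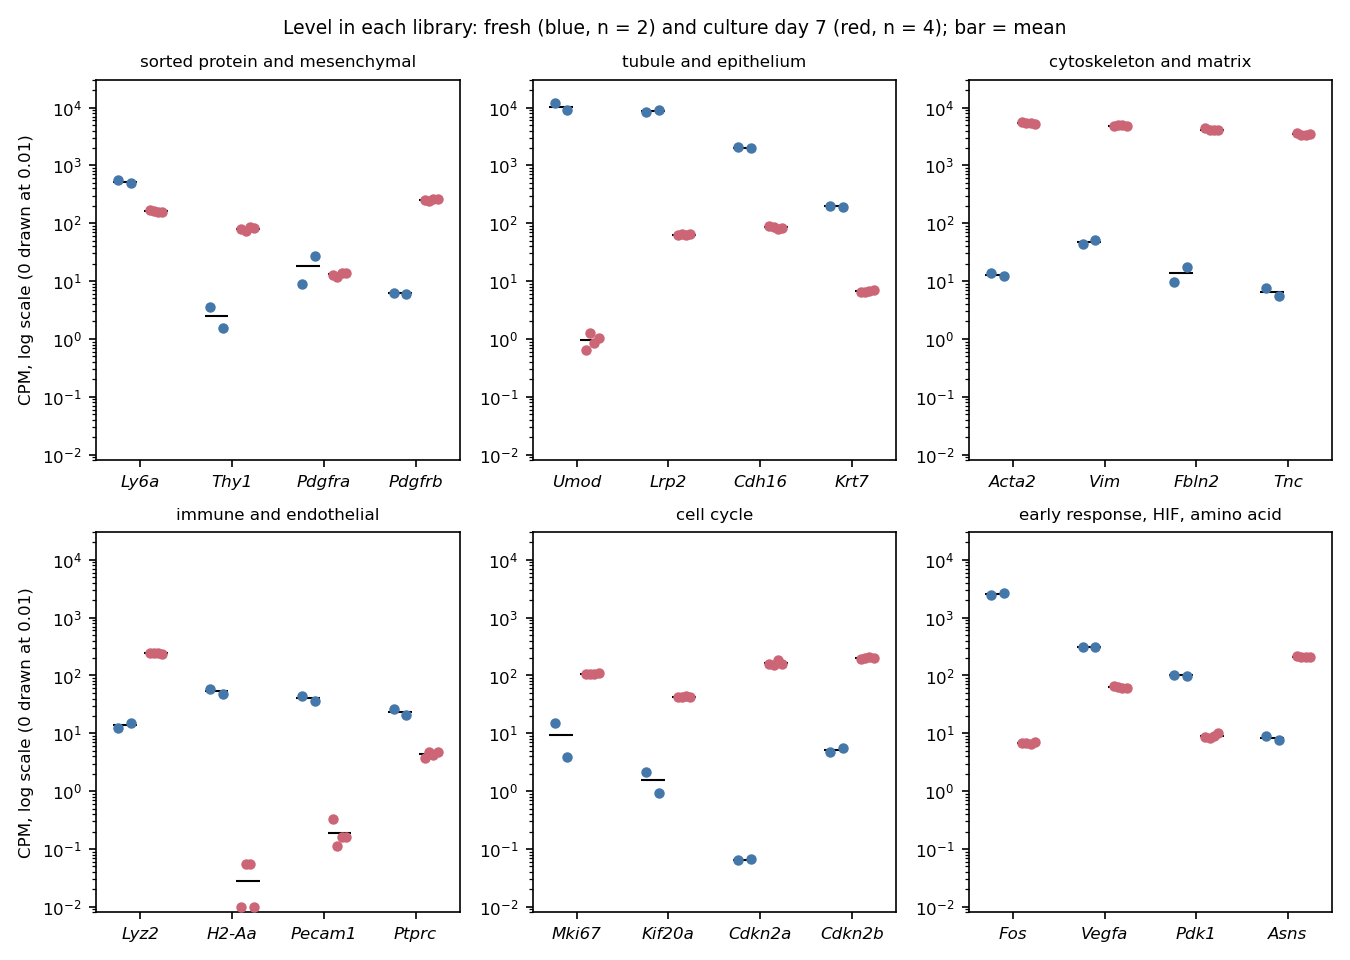
Level of 24 genes in each library on a log CPM axis, fresh in blue (n = 2) and day 7 in red (n = 4), with the mean as a bar and values of 0 drawn at 0.01. The days do not overlap for any gene drawn except Pdgfra, whose fresh libraries stand at 8.83 and 27.6 CPM on either side of the cultured ones.

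Cell division genes rose without exception in the mitosis list. All 30 members were higher at day 7 (median 4.16), and their summed level was 124 and 61.4 CPM in the fresh libraries and 1260 to 1286 CPM at day 7. The fresh pair differed here by about a factor of 2, and without the fresh replicate 1 the median was 5.16, without the fresh replicate 2 it was 3.61. Mki67, the proliferation marker Ki-67, stood at 15.2 and 3.88 CPM in the fresh libraries and 108, 107, 106 and 109.6 CPM at day 7. All cultured libraries exceeded both fresh ones, with a log2 fold change of 3.49 ± 0.29 (SE, adjusted p = 1.13e-08), or 4.81 without the fresh replicate 1 and 2.84 without the fresh replicate 2. Kif20a (4.81) and Prc1 (4.12), which build the central spindle, Tpx2 (5.12), which activates Aurora A, and Anln (5.88), of the contractile ring, rose. Without the fresh replicate 1 these were larger, 5.56 for Kif20a, 6.39 for Tpx2 and 6.47 for Anln, and without the fresh replicate 2 Tpx2 was at 4.48. Exons of Kif20a overlap Cdc23 over 29.3% of their length. DNA replication genes rose in 26 of 28 cases, with a median of 1.92: Ccne1 (4.33), cyclin E1, Rrm1 (3.74) and Rrm2 (3.11), of ribonucleotide reductase, and Pole (3.54), a DNA polymerase, were higher.

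Promoters of mitotic genes commonly hold the cell cycle homology region, searched here as TTTGAA, and CCAAT boxes, both on either strand. TTTGAA was present in 17 of 24 mitosis genes with a RefSeq window (70.8%), in 3 of 22 replication genes (13.6%) and in 15% of the tested genes with a window. CCAAT was present in 79.2% of the mitosis genes, 63.6% of the replication genes and 41.8% of the tested genes. The mitosis list holds such genes by its choice, so its shares of matches are no test of regulation in these data. The windows of Cdk1, the mitotic kinase (4.97), and Ccnb2, its cyclin partner (3.96), both chosen after their values were seen, and of Mki67 and Prc1 show the arrangement, beside that of the replication gene Rrm1, which holds CCAAT and no TTTGAA. Capitals mark the matches, which do not overlap in these windows.
Cdk1 promoter, chr10:69352863-69353162, minus strand: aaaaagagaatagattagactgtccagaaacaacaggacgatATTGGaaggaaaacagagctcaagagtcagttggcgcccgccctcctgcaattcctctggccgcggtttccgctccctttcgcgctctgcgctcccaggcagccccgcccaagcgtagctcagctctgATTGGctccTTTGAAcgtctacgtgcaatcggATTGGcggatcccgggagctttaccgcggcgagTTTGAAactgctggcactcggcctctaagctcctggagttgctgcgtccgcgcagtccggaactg
Ccnb2 promoter, chr9:70421505-70421804, minus strand: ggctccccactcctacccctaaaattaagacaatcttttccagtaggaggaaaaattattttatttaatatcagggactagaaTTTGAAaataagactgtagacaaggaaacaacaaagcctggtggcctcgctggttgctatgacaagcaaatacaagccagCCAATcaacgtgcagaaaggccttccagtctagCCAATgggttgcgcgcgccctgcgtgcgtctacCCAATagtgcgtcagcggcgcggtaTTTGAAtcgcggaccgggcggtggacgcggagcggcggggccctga
Mki67 promoter, chr7:135716330-135716629, minus strand: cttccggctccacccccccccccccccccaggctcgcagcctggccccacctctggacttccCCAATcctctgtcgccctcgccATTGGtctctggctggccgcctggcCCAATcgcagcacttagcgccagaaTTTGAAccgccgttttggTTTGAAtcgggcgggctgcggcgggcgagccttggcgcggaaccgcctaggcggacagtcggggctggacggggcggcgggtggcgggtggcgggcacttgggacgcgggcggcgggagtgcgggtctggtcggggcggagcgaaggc
Prc1 promoter, chr7:80294201-80294500, plus strand: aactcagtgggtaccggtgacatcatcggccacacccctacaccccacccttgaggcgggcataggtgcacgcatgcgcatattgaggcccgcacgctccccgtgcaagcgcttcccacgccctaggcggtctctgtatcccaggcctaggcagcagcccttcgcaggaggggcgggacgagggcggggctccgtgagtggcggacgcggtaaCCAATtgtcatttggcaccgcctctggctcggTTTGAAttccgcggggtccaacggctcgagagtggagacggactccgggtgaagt
Rrm1 promoter, chr7:102441445-102441744, plus strand: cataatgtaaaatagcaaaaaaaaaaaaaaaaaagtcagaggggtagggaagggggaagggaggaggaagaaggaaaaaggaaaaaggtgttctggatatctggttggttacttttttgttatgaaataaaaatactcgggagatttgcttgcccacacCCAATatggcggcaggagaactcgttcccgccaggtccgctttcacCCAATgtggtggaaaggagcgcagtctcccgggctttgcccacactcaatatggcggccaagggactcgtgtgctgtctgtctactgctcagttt
Rrm1 rose about as much as Ccnb2 and Mki67 without TTTGAA in its window, and the absence of these letters says nothing of sites elsewhere.

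Inhibitors of the cell cycle rose in the same libraries. Cdkn2a, which encodes p16 and p19ARF, had 2 counts over both fresh libraries and 154 to 183 CPM at day 7, a ratio of 2500-fold (95% counting interval 691 to 20600). Its neighbour Cdkn2b, encoding p15, stood at 4.74 and 5.66 CPM in the fresh libraries and 192, 197, 209.8 and 198 CPM at day 7. Both were far above the fresh level in all 4 cultured libraries. Of 23 inhibitors and p53 targets 16 rose, among them Phlda3 (6.71), a p53-induced repressor of AKT, and Cdkn1a (3.10), encoding p21 and chosen after its value was seen. The pocket protein gene Rbl2 (-1.23) and the antiproliferative gene Btg2 (-3.68) fell.

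Immediate early and heat shock genes, which respond within minutes to stress and to tissue dissociation, were high in the fresh cells and low at day 7. Of 29, 26 fell and 1 rose, with a median of -2.86 and summed levels of 14590 and 15410 CPM in the fresh libraries and 1720 to 1767 CPM at day 7. Fos, a subunit of the AP-1 factor, stood at 2500 and 2723 CPM in the fresh libraries and 6.79, 6.80, 6.55 and 6.98 CPM at day 7. Fosb stood at 988 and 1060 CPM in the fresh libraries and 0.776, 0.502, 0.379 and 0.644 CPM at day 7. Both genes were abundant in the fresh libraries and nearly gone from the cultured ones. Atf3 (-8.25), a stress-induced repressor, and Nr4a1 (-7.62), an orphan nuclear receptor, fell too, and the small heat shock gene Hspb1 (2.53), which also binds actin, was the member that rose. The fresh cells were at day 0 after digestion and sorting, so the effect of isolation and the effect of culture cannot be told apart for this group.

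Inflammatory genes mostly fell, with exceptions. Of 24 tested NF-kB targets and chemokines, 15 fell, such as Nfkbia (-3.32), the inhibitor of NF-kB, Cxcl10 (-7.23), an interferon-induced chemokine, and Cxcl16 (-2.45), and 8 rose, such as Csf1 (3.88), the macrophage growth factor, and Vcam1. Of 24 interferon-response genes 14 fell and 4 rose, which became 10 and 8 when scaled by library size alone. Irf1 (-3.39), Mx2 (-5.50) and Rsad2 (-5.35), the last 2 antiviral effectors, fell, and Bst2 (2.15), tetherin, rose.

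Targets of HIF, the pathway that roxadustat acts on, were divided in these control cells. Outside glycolysis 16 of 29 fell and 8 rose (median -0.51), or 14 and 13 when scaled by library size alone. Vegfa, the vascular growth factor, stood at 316 and 307 CPM in the fresh libraries and 65.0, 62.3, 61.4 and 62.0 CPM at day 7. It was lower in all cultured libraries, with a log2 fold change of -2.31 ± 0.06 (SE, adjusted p = 1.31e-23). Car12 (-7.85), a carbonic anhydrase, and Ndrg1 (-5.74), a stress-induced differentiation gene, fell. So did Pdk1 (-3.49), a kinase that inhibits pyruvate dehydrogenase, and Egln3 (-2.05), an oxygen-sensing prolyl hydroxylase. Those that rose included Plod2 (2.45), a collagen lysyl hydroxylase. Of the 10 genes of the oxygen-sensing pathway, 3 rose and 6 fell, or 4 and 4 when scaled by library size alone. The HIF subunit gene Hif1a (0.43) and Vhl (0.71), which encodes the recognition part of the ubiquitin ligase of HIF, rose, and Arnt2 (-1.62), a partner subunit, fell. Egln1 fell by a log2 fold change of -0.51, which scaling by library size alone reduced to -0.08 (adjusted p = 0.232).

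**Figure D4:**
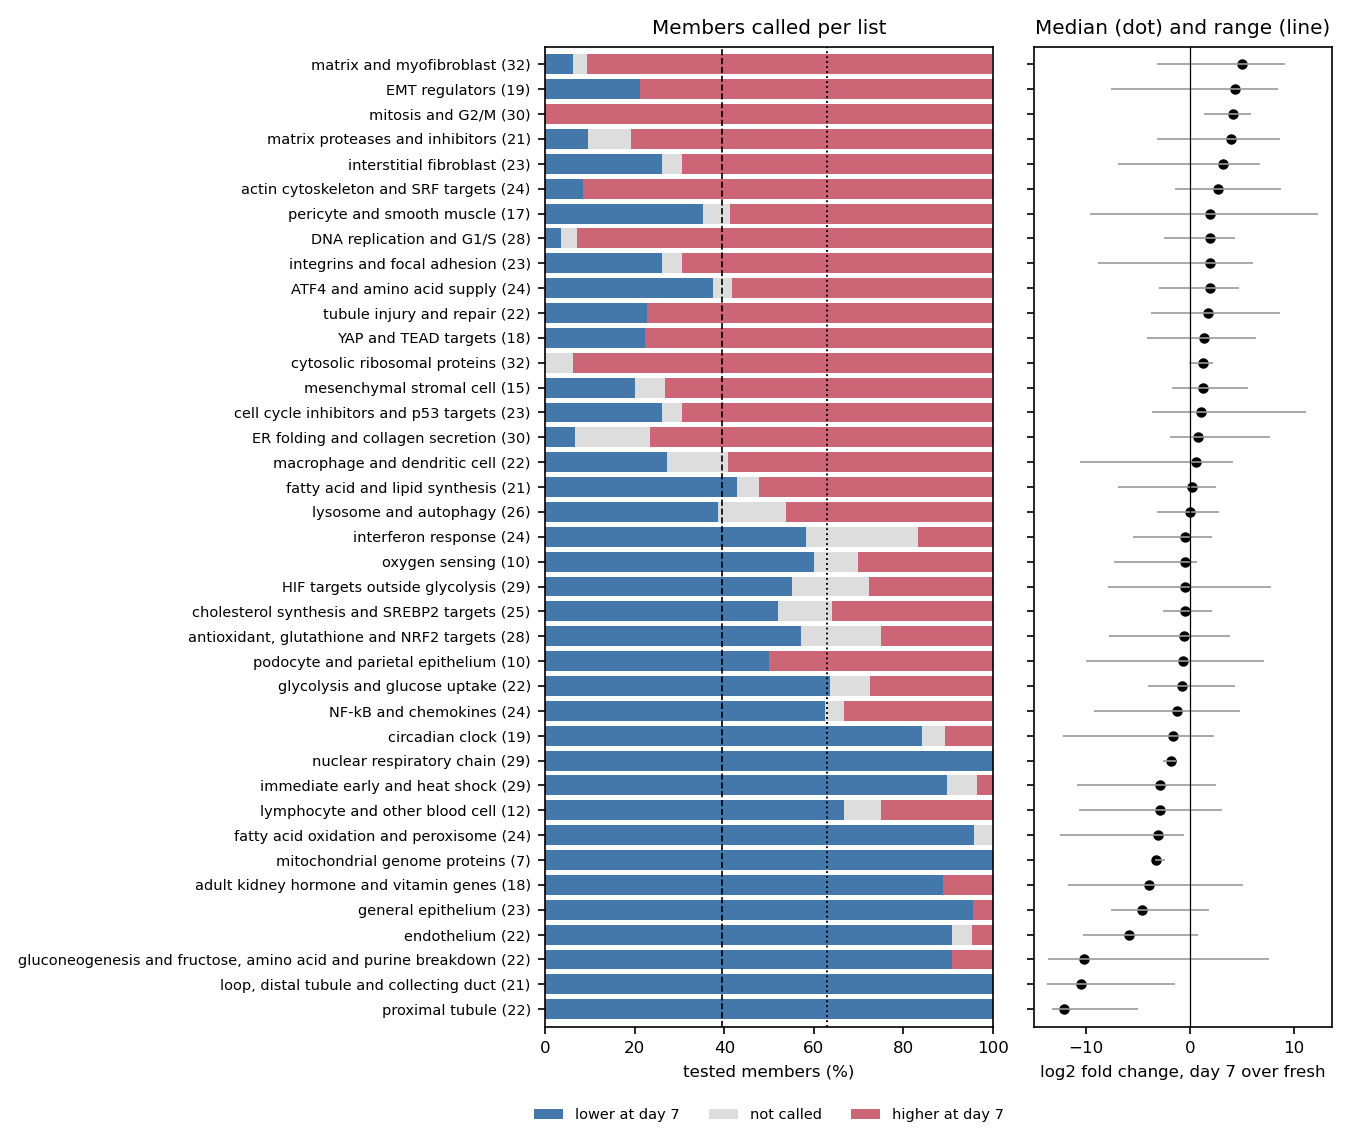
Share of tested members called lower (blue), not called (grey) and higher (red) in each of the 39 gene lists, with the number tested in brackets, beside the median and range of the members' log2 fold change. The dashed line is at 39.5%, the share of all tested genes called lower, and the dotted line leaves 37% to its right, the share called higher.

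Genes of mitochondrial energy metabolism fell. All 29 nuclear genes of the respiratory chain were lower, within a narrow range (median -1.78, range -2.57 to -1.33). Their summed level was 18520 and 17510 CPM in the fresh libraries and 4890 to 5100 CPM at day 7. Uqcrfs1 (-2.57), the Rieske iron-sulphur protein, Cyc1 (-2.37), cytochrome c1, and Sdha (-2.30) and Sdhb (-2.24), of succinate dehydrogenase, had the smallest p-values. The 7 tested protein genes of the mitochondrial genome fell too (median -3.28), such as mt-Nd1 (-3.28) and mt-Cytb (-3.34), and the other 6 are listed at 0 in every library. Fatty acid oxidation genes fell in 23 of 24 cases (median -3.08), among them Acadm (-3.71), medium-chain acyl-CoA dehydrogenase, Ehhadh (-7.42), of peroxisomes, and the coactivator Ppargc1a (-6.65), which drives mitochondrial biogenesis. The tubule marker sums given above fell in the same libraries, and their part in these results was not tested.

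Most genes of sugar and amino acid breakdown fell as well. Of 22 genes of gluconeogenesis and of fructose, amino acid and purine breakdown, 20 fell, with a median of -10.14, or -9.83 with low-count genes set at the limit of 3 counts. Khk (-6.49), ketohexokinase, and Pcx (-5.60), pyruvate carboxylase, are examples. Those that rose were Xdh (1.06), xanthine dehydrogenase, and Uox, urate oxidase, which had 0 counts in the fresh libraries and was at least 14.5-fold higher by the limit of 3 counts, or 7.18-fold without the fresh replicate 1 and 7.28-fold without the fresh replicate 2. Glycolysis genes fell in 14 and rose in 6 of 22 cases. Hk2 (4.29), the inducible hexokinase, and Pkm (1.56), pyruvate kinase, rose, Hk2 by 4.93 without the fresh replicate 2, whereas Aldoc (-4.05), Pfkfb3 (-2.57), which makes the activator of phosphofructokinase, and Tpi1 (-1.57) fell.

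Lipid genes were divided. Of 25 cholesterol synthesis genes, 13 fell and 9 rose, or 11 and 11 when scaled by library size alone. Hmgcs1 (-2.61), near the start of the pathway, fell. In fatty acid and lipid synthesis 11 rose and 9 fell, Acacb (-6.46), Acss2 (-4.72) and Dgat2 (-6.88) among the latter.

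Genes of amino acid supply moved in both directions. Of 24 targets of the stress factor ATF4 and genes of amino acid supply, 14 rose and 9 fell. Asns, asparagine synthetase, stood at 8.89 and 7.70 CPM in the fresh libraries and 213, 211, 209.8 and 205 CPM at day 7. It was higher in every cultured library, with a log2 fold change of 4.66 ± 0.10 (SE, adjusted p = 1.47e-24). Aldh18a1 (4.65), of proline synthesis, Mthfd2 (3.48), of mitochondrial folate metabolism, and Slc7a11 (3.82), the cystine transporter, rose too, and Cth (-2.96), which makes cysteine, fell. Cytosolic ribosomal protein genes rose in 30 of 32 cases by a modest amount (median 1.27), such as Rpl4 (1.11). Many ribosomal genes have processed copies in the genome, so their counts are uncertain.

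**Figure D5:**
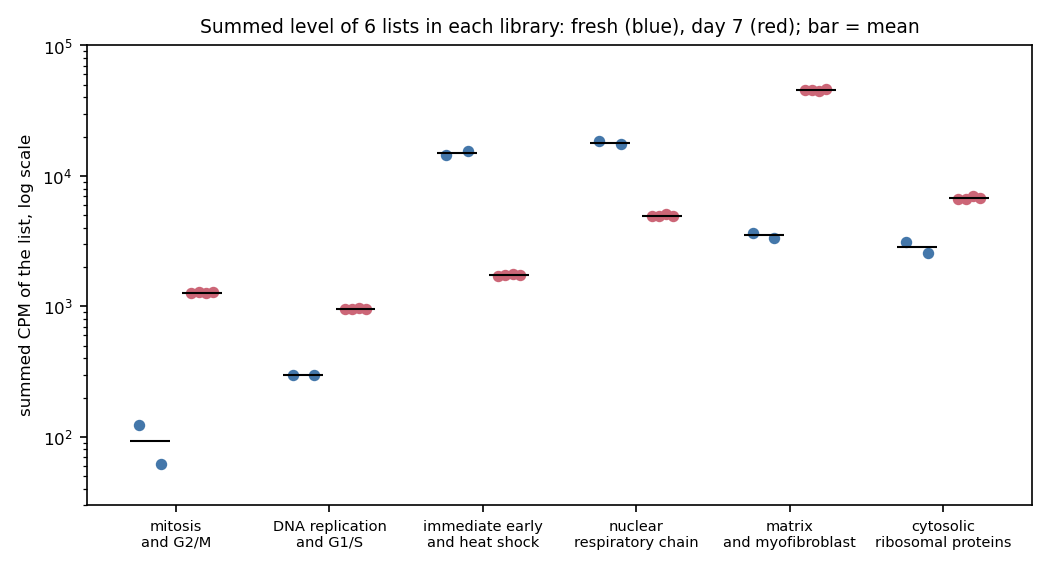
Summed CPM of 6 gene lists in each library on a log axis, fresh in blue (n = 2) and day 7 in red (n = 4), with the mean as a bar. The days are separated for all 6 lists, and the fresh libraries differ most from each other for the mitosis list, at 123.6 and 61.4 CPM.

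Defence against oxidants fell in 16 and rose in 7 of 28 listed genes, or 13 and 13 when scaled by library size alone. Catalase (Cat, -2.69), the superoxide dismutases Sod2 (-3.005) and Sod3 (-7.54) and the glutathione transferase Gsta2 (-7.79) fell, and Slc7a11 and G6pdx (1.30), which supplies NADPH, rose. Lysosome and autophagy genes were balanced, 12 higher and 10 lower, or 17 and 6 when scaled by library size alone. Neu1 (-3.18), a sialidase, and Gabarapl1 (-2.67), of autophagosomes, fell.

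Genes known from injured tubules rose in 17 of 22 cases, a list that shares Timp1, Vcam1 and matrix genes with those above. Cdh6 (5.64), a cadherin of developing proximal tubule, Anxa3 (5.58), an annexin, and S100a6 (7.87), a calcium-binding protein, rose, and Clu (-3.71), clusterin, and Hbegf (-1.50), a growth factor of the epidermal family, fell. Kidney hormone and vitamin genes fell in 16 of 18 cases, such as Kl (-11.36), the klotho co-receptor, Ace (-10.75), angiotensin-converting enzyme, and Esrrg (-9.90), a nuclear receptor of mitochondrial genes. The members that rose were Gdnf, the glial-derived factor that guides the ureteric bud, and Igf1 (1.51). Gdnf had 3 counts over the fresh libraries, all in replicate 2, and the ratio of day 7 to fresh was 35.9-fold (95% counting interval 12.1 to 175). That ratio was 17.8 without the fresh replicate 1, and without the fresh replicate 2 Gdnf was at least 18.1-fold higher by the limit of 3 counts. Circadian clock genes fell in 16 of 19 cases, among them Hlf, a transcription factor with 0 counts at day 7 and at least 807-fold lower by the limit of 3 counts, and the repressors Cry1 (0.79) and Bhlhe41 (2.29) rose. The time of day at lysis is not given in the sources used here.

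Outside the lists, the largest rises with a measurable fresh level included Gpnmb, a glycoprotein of macrophages and melanocytes, which stood at 0.39 and 0.987 CPM in the fresh libraries and 221, 222, 215 and 221 CPM at day 7. All 4 cultured libraries were far above both fresh ones, with a log2 fold change of 8.31 ± 0.16 (SE, adjusted p = 2.81e-26), or 9.13 without the fresh replicate 2. Of the abundant day 7 genes with at most 3 fresh counts, Gpr176, an orphan receptor, gave a ratio of 1290-fold (95% counting interval 358 to 10700) and Brinp1, a gene of the nervous system, of 643-fold (95% counting interval 178 to 5320). Both fresh counts of Gpr176 came from replicate 1: without it the gene was at least 429-fold higher by the limit of 3 counts, and without the fresh replicate 2 the ratio was 652. Ereg, the growth factor epiregulin, gave a ratio of 537-fold (95% counting interval 183 to 2600). These genes had 2 or 3 counts over the fresh libraries, and the intervals cover counting error only.

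The same 7 days of culture were also measured in cells from roxadustat-treated mice, in 2 fresh and 4 cultured libraries of their own. The change over 7 days differed between the arms for 5418 of 18731 genes (28.9%), by the interaction term of the same model. Lyz2 rose in control cells, from 13.8 ± 2.21 to 242 ± 2.43 CPM, and went from 55.8 ± 7.40 to 6.003 ± 0.239 CPM in the roxadustat arm, so the difference in log2 change was -7.34 ± 0.14 (SE, adjusted p = 1.06e-23). Ccl6, a chemokine of myeloid cells, went from 2.65 ± 0.483 to 78.6 ± 4.26 CPM in control cells and from 17.6 ± 0.189 to 2.87 ± 0.346 CPM in the other arm, a difference of -7.49 ± 0.20 (SE, adjusted p = 1.02e-20). The means of both myeloid genes thus went up in control cells and down in the other arm. Pdk1 went from 101 ± 2.34 to 8.97 ± 0.848 CPM in control cells but from 212 ± 6.04 to 305 ± 22.8 CPM after roxadustat, a difference of 4.02 ± 0.12 (SE, adjusted p = 1.85e-19). Pygl, liver glycogen phosphorylase, went from 70.2 ± 8.88 to 3.50 ± 0.577 CPM in control cells and from 58.4 ± 3.799 to 107 ± 3.58 CPM in the other arm, a difference of 5.19 ± 0.15 (SE, adjusted p = 1.85e-19). Car12 fell in control cells, from 352 ± 40.3 to 1.51 ± 0.252 CPM, and went from 257 ± 2.09 to 24.6 ± 1.43 CPM in the roxadustat arm, a difference of 4.47 ± 0.14 (SE, adjusted p = 6.35e-19). The means of Pdk1 and Pygl thus went down in control cells and up in the roxadustat arm, and that of Car12 went down in both.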

How the data were processed

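Whole-number read counts per gene were deposited by the authors for each library. Per the submitters' processing notes, reads were handled with STAR (version 2.5.2a) and featureCounts (version 1.5.0-p1) on the mouse genome mm10, and per the labels' protocols the mRNA libraries were unstranded, so reads of overlapping or antisense genes cannot be told apart. Such overlap is not limited to the genes flagged above. It covered 28.3% of exon length for Gabarapl1, 23.2% for Ccn2, 19% for Bhlhe41 and 18.3% for Cxcl16. The annotation release is not given in the sources used here; 47310 of 47729 gene IDs were matched to GENCODE M21 (GRCm38) for symbols and coordinates. Promoter windows came from RefSeq GRCm38.p6, without chromosome 18. Counts of all 20 libraries in 6 groups were fitted in edgeR 4.0.16 (R 4.3.3) with TMM scaling, filterByExpr and the robust quasi-likelihood test, with Benjamini-Hochberg adjustment over 18731 genes. The standard error is the log2 fold change over the root of F. Level errors are SD. A limit of detection was 3 counts over a group. The code was tested on simulated data in which few genes changed and all groups had the same spread, unlike the data here. The gene lists and the comparison were chosen with earlier results of these data known. Named genes were, among protein-coding genes with adjusted p under 0.05 and no overlap, the 10 largest rises and falls (20 CPM in the higher group, 20 counts in the lower), the 5 most abundant with at most 3 counts in the lower group, up to 4 members per list by smallest p and 2 against the majority, the 5 largest shares of counts per group, the 5 smallest interaction p, and fixed checks; some of these genes are not reported here. Alternatives were other scalings, filters, sample sets, thresholds, DESeq2 1.42.0, limma 3.58.1 voom, a replicate block and leaving out each library.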

Additional observations from a re-analysis of the deposited data

Results flagged for a closer look

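The change over 7 days differed between control and roxadustat cells, by the interaction term in edgeR, for the 5 genes with the smallest p named above. The differences in log2 change (roxadustat minus control) were -7.34 for Lyz2, -7.49 for Ccl6, 4.47 for Car12, 5.19 for Pygl and 4.02 for Pdk1.

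Of 183 named genes checked at day 7, 16 had a library whose gap to the nearest of the others exceeded Dixon's 95% critical value for 4 samples, where chance flags about 1 in 20 groups. Replicate 4 was apart for Cdh1 (2.42 CPM against 1.41 to 1.56 in the others), Flt1 (71.0 against 65.3 to 66.2), Kdr (1.503 against 2.00 to 2.07), Mx2 (0.268 against 0.108 to 0.129), Phlda3 (322 against 338 to 341), Srf (84.5 against 88.1 to 88.2), Thbs1 (4467 against 4225 to 4251) and Tpx2 (74.7 against 70.4 to 70.8). Replicate 1 was apart for Abcc9 (0.0647 against 0.107 to 0.112), Grhl2 (0.712 against 0.322 to 0.379) and S100a6 (2018 against 2474 to 2503). Replicate 2 was apart for Prc1 (55.2 against 50.7 to 51.0) and Tgfb2 (85.2 against 88.9 to 89.5), and replicate 3 for Gpnmb (215 against 221 to 222), mt-Nd1 (720.5 against 787 to 789) and Tpi1 (216 against 199 to 202). These gaps are small beside the differences between the days, of which leaving out a day 7 library moved none of these 16 genes across the threshold.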

How the results depend on the processing

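Main counts were 6925 genes higher, 7401 lower and 5418 with a different change in the roxadustat arm. Testing against a fold of 2 (glmTreat) lowered them to 3401, 4381 and 874, by its construction. With totals as the scaling and no TMM factor (library size alone), 9073 genes were higher and 5645 lower, and Srf turned to 0.11 and Xbp1 to 0.042 on the log2 scale. The other scalings, filters, sample sets and tools gave 6002 to 7521 higher and 6098 to 8359 lower, and 5175 to 5558 for the interaction. Leaving out a library gave 6549 to 6912 higher, 6963 to 7268 lower and 4399 to 5245 for the interaction, and Pdgfra, not called with all libraries, was at -1.06 without the fresh replicate 1 and at 0.58 without the fresh replicate 2. A replicate block gave 6859, 7326 and 5377. Deviations of same-numbered libraries from their group means had correlations of -0.012 and 0.005. With 2 fresh libraries these deviations mirror each other, so the values cannot show whether fresh and cultured libraries share animals. The main limits are the 2 fresh libraries, which differed more than the 4 cultured ones, and a spread estimated over all groups in the main fit too. Where only 1 fresh library remained, the spread had to be taken wholly from the other groups.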
